A study of Rattus norvegicus with 3 samples.

Results

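The kallikrein-kinin genes on a rat kidney array comprised 9 of 17818 named genes, with 9 of 30367 probes. The set covers tissue kallikrein (Klk1), plasma kallikrein (Klkb1), the kininogens Kng1 and Kng2, the kinin receptors Bdkrb1 and Bdkrb2, and Xpnpep2. A probe belonged to it when the array named it as 1 of these 7 genes, which gave 7 probes, or when its accession carries 1 of these symbols in the current RefSeq gene table, which added 2. Each of the 9 probes was printed on 1 spot.

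Kidneys came from male spontaneously hypertensive rats with a Wistar background, 8 to 10 weeks old and weighing 280 to 330 g, in groups of 10. The control group received water by mouth. The low-dose and high-dose groups received HBMP, a hydrolysate of blue mussel (Mytilus edulis) protein, at 10 and 20 mg/kg per day for 4 weeks. RNA of 4 rats per group was pooled and put on 1 array per group, labelled with the dye Cy3, so the data hold 3 arrays with no replicate and no group of another strain. No test between groups was possible, and every value below describes these 3 pools.

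Tissue kallikreins are serine proteases that cut kininogens to release kinins, small peptides that widen blood vessels and promote sodium excretion. In the kidney, tissue kallikrein is made mainly in the connecting tubule and is released into the urine. Kinins act through the B2 receptor, which many cells carry at rest, and through the B1 receptor, which is usually induced by injury or inflammation. Peptidases such as angiotensin-converting enzyme, neprilysin and aminopeptidase P then cut the kinins.

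The array's names for the kallikreins and kininogens differ from the current ones, and the current symbols are used below. The probe named Klk1c7 on the array carries the accession of the gene now called Klk1, and the probe named Klk1 that of Klk1b3. The probe named Kng1l1 belongs to Kng1, the probe named Kng1 to Kng2, and the probe named Kng2 to Kng2l1. The table's synonyms overlap as well, since Klk1 is also listed as a former name of Klk1b3 and Klk1c12. Which of these copies releases kinins in the rat kidney was not settled by the names.

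Of the 9 probes, 4 stood above background on all 3 arrays and 5 on none. The limit for above background was a signal-to-noise ratio of 3 in the green scan. The 4 were Klk1, Klk1b3, Kng2 and Xpnpep2. The 5 were Klkb1, Kng1, Kng2l1, Bdkrb2 and Bdkrb1. Kng2 was nearest to the limit from above, with a ratio of 3.57 on the control array, and Kng1 nearest from below, with 2.0 on the same array. Across the whole array, between 50.6% and 54.7% of probes stood above background.

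**Figure D1:**
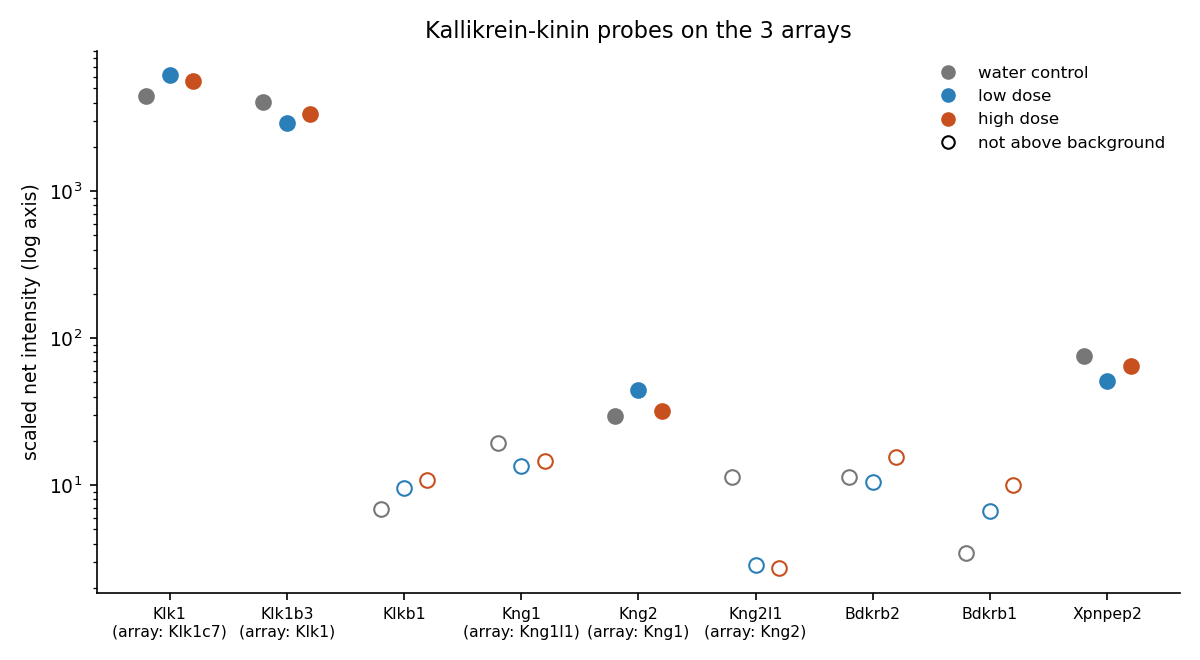
Scaled net intensity (log axis) of the 9 kallikrein-kinin probes with water, the low dose and the high dose, 1 point per array, with hollow points for values not above background. Klk1 and Klk1b3 lie far above the rest on every array, Kng2 and Xpnpep2 below 100, and the other 5 probes are hollow on all 3 arrays.

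No member differed by 2-fold or more in any of the 3 comparisons. Over all named genes above background on both arrays compared, 3.22% differed by at least 2-fold between the low dose and control (2.48% higher and 0.739% lower), 1.00% between the high dose and control (0.849% higher and 0.152% lower), and 1.96% between the doses. With 4 measured members, a count of 0 lies near these shares.

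Klk1, tissue kallikrein by its current symbol, had a net spot intensity, scaled between arrays, of 4453 with water, 6135 at the low dose and 5619 at the high dose. Both dose arrays were above control, and the low-dose array was the highest. The log2 difference was 0.46 for the low dose against control, or 1.38-fold, and 0.34 for the high dose against control, or 1.26-fold. The technical SD of such a difference at 1 spot was 0.16 for the low dose and 0.15 for the high dose, taken from the 100 probes nearest in brightness that were printed on 10 spots each. This SD holds nothing of the difference between rats. In all, 18.4% of named genes lay at least as far from 0 as Klk1 at the low dose, and 27.9% at the high dose.

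The Klk1 spot lay in an area where the dose arrays were brighter than control. Among the 86 spots above background within 6 rows and columns of it, the median log2 difference was 0.09 for the low dose against control, against -0.09 over all such spots of the array. With the local offset of every spot removed, the difference of Klk1 was 0.26 at the low dose and 0.22 at the high dose.

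Klk1b3, the copy that the array calls Klk1, had 4042 with water, 2907 at the low dose and 3334 at the high dose. Both dose arrays were below control, and the low-dose array was the lowest. The log2 difference was -0.48 with a technical SD of 0.15 for the low dose against control, and -0.28 with an SD of 0.14 for the high dose against control. With the local offset removed these were -0.32 and -0.23. In all, 17.3% of named genes lay at least as far from 0 at the low dose, and 37.0% at the high dose. Klk1 therefore exceeded Klk1b3 in its log2 difference by 0.94 at the low dose, with a technical SD of 0.22, and by 0.61 at the high dose, with an SD of 0.21. A constant scaling factor per array cancels in this gap. With the local offset removed it was 0.58 at the low dose and 0.45 at the high dose.

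Klk1 and Klk1b3 lie on chromosome 1 with 3 protein-coding genes between them. Their promoter windows, 250 bases before to 50 after the annotated start, are shown because the 2 copies differed in direction although they are alike upstream. Both are from RefSeq, build GRCr8, plus strand, Klk1 at chr1:103778902-103779201 and Klk1b3 at chr1:103845397-103845696. Bases 35 to 299 of the Klk1 window aligned with bases 1 to 263 of the Klk1b3 window. Capitals mark bases within this stretch that differ from the other copy or have no partner in it.
Klk1: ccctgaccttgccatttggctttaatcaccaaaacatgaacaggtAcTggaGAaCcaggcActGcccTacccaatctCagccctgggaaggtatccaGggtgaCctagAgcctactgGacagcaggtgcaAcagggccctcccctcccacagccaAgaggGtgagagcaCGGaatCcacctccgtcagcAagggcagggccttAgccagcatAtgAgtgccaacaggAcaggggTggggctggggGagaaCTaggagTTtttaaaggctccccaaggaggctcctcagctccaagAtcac
Klk1b3: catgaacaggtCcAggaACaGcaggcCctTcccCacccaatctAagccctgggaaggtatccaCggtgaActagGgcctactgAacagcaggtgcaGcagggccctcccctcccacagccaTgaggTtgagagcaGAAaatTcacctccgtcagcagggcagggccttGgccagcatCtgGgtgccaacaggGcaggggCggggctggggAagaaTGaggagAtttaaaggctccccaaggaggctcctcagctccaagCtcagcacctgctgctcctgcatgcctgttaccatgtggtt
The aligned stretch was 87.9% identical, with 233 identical columns of 265. The motif TTTAAA, which reads the same on both strands, begins at base 260 of the Klk1 window and base 224 of the Klk1b3 window. It thus lies after the annotated start in Klk1 and 27 bases before it in Klk1b3, and the 2 annotated starts do not line up in the alignment. Of 33469 promoter windows, 13.6% hold it. The motif TATAAA, searched on both strands, was in neither window. Whether these sequences bear on the direction of the Klk1 and Klk1b3 values was not tested.

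Klk1 and Klk1b3 were not the only bright kallikrein probes. Of 18 other kallikrein-family genes with a probe, 5 stood above background on all 3 arrays, 11 on none and 2 on some. Klk1c2 (tonin) had 1789 with water, 1517 at the low dose and 1143 at the high dose. Klk1c3 had 5483, 4837 and 4968 in the same order, and Klk1c8 had 1240, 1058 and 1039. Klk1c4 and Klk1c6 were also below control at both doses. Together with Klk1b3, these made 6 family probes, all below control at both doses, with log2 differences from -0.48 to -0.18 at the low dose and from -0.65 to -0.14 at the high dose. None of them reached 2-fold, which 3.22% of all named genes did at the low dose and 1.00% at the high dose. With 6 probes, such a count lies near these shares. Over all named genes the median was -0.11 at the low dose, with quartiles of -0.29 and 0.09. At the high dose it was -0.05, with quartiles of -0.25 and 0.15. A value below control was thus common over the array, and several of the 6 lie between these quartiles. Klk1 stood on the other side of 0 from all 6 at both doses. It was not alone there, since Klk1c9, a dim copy above background only with water and at the high dose, stood at 0.29 at the high dose, with a technical SD of 0.30. Near-identical copies such as these can bind each other's probes, and no probe sequence was used here, so each value may hold signal of more than 1 copy.

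**Figure D2:**
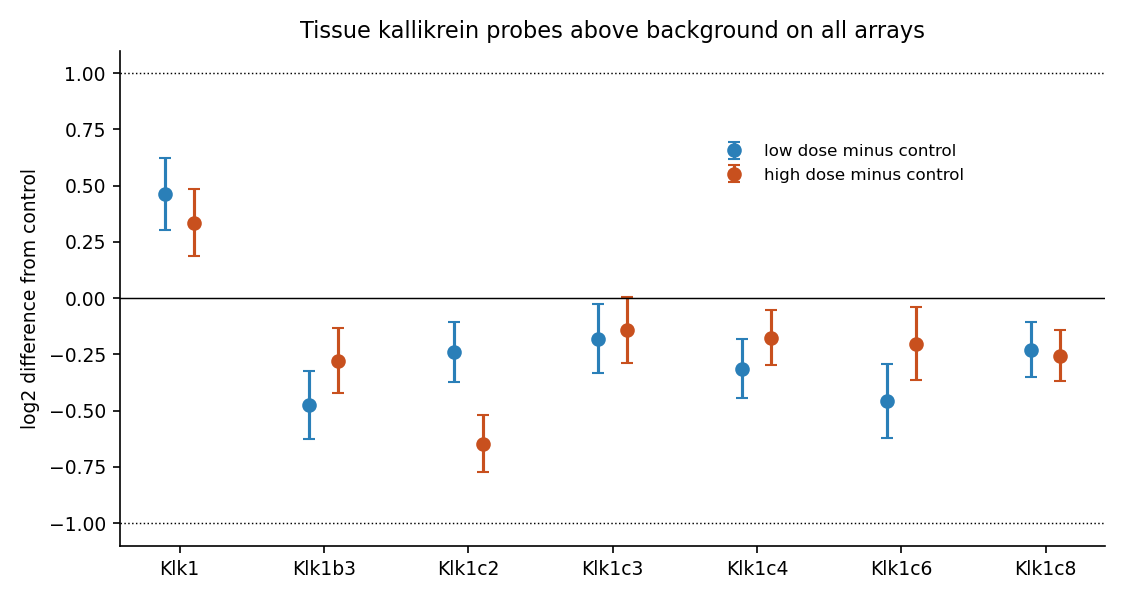
Log2 difference from control of the 7 tissue kallikrein probes above background on all 3 arrays, low dose left of high dose, with bars for the technical SD at 1 spot and dotted lines at 2-fold. Klk1 lies above 0 at 0.46 and 0.34, and the other 6 lie below 0 at both doses.

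Markers of the distal convoluted and connecting tubule, where tissue kallikrein is made, were measured beside it. Of 9 such markers, 7 stood above background on all arrays and Pvalb and Trpv5 on none. Their median log2 difference was -0.22 at the low dose and -0.38 at the high dose, against -0.11 and -0.05 over all named genes. At either dose 0 of 7 reached 2-fold, against 3.22% of all named genes at the low dose and 1.00% at the high dose. A count of 0 of 7 lies near these shares. At each dose 5 of the 7 lay below control and 2 above. Their summed scaled intensity was 4114 with water, 3376 at the low dose and 3051 at the high dose. The 2 above were Calb1 and Wnk4. Calb1, a calbindin of these cells, stood at 0.35 at the low dose and 0.32 at the high dose. The kinase gene Wnk4 stood at 0.81 at the low dose and 0.89 at the high dose. The part of cell makeup in the kallikrein values was not tested, and in pooled whole-kidney RNA fewer cells of a type and less RNA per cell cannot be told apart.

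Plasma kallikrein, encoded by Klkb1 and made chiefly by the liver, was not above background on any array, with 6.88 with water, 9.59 at the low dose and 10.9 at the high dose. No fold is given for values of this kind. The lowest scaled intensity of any probe above background was 13.8, 11.5 and 8.19 on these arrays in the same order. Of 9 liver markers, 3 stood above background on all arrays (Apob, Fga and Tf), 4 on none (Apoa1, Ttr, Serpina1 and Cyp7a1) and 2 on some (Alb and Fgb). Fgb, a fibrinogen chain, had 26.4 with water, 179 at the low dose and 16.4, not above background, at the high dose.

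Kng2 was the kininogen above background. Kininogens are the precursors from which kinins are cut, and the gene table's synonyms for Kng2 include those of rat T-kininogen, an acute-phase protein, as well as those of K-kininogen. Kng2 had 29.8 with water, 44.1 at the low dose and 31.8 at the high dose. The low-dose array was the highest, while the high-dose array was close to control. The log2 difference was 0.57 with a technical SD of 0.25 for the low dose against control, and 0.10 with an SD of 0.24 for the high dose against control, which is smaller than that SD. The high dose against the low dose stood at -0.47, with an SD of 0.21. Under normexp background correction, which shrinks differences of dim spots, the low dose stood at 0.14 and the high dose at -0.10 against control. With the local offset removed they stood at 0.34 and -0.08. At the low dose 12.2% of named genes lay at least as far from 0 as Kng2, and 74.9% at the high dose.

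Kng1 and Kng2l1, which neighbour Kng2 on chromosome 11 with 0 protein-coding genes between neighbours, were not above background. Kng1 had 19.5 with water, 13.4 at the low dose and 14.6 at the high dose. Kng2l1 had 11.5, 2.88 and 2.73 in the same order. Both probes list the same 2 Ensembl transcripts among their matches, so they may not tell these copies apart.

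Acute-phase genes were listed beside Kng2. Of 10 such genes, 4 stood above background on all arrays, and 4 of 5 measured at the low dose and in control were at least 2-fold higher at the low dose, with a list median of 1.56. At the high dose 0 of 4 reached 2-fold and the median was 0.14. Over all named genes, 2.48% were at least 2-fold higher at the low dose and 1.00% passed 2-fold at the high dose. A count of 0 of 4 lies near the latter share. The summed intensity of the 4 was 810 with water, 2637 at the low dose and 943 at the high dose. Lcn2, a lipocalin, stood at 3.69 and the complement component C3 at 1.56 at the low dose. Hp, Orm1 and Tfpi2 were above background on no array. The part of an acute-phase response in the Kng2 value was not tested.

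Neither kinin receptor was above background on any array. Bdkrb2, the B2 receptor, had 11.5 with water, 10.6 at the low dose and 15.5 at the high dose. Bdkrb1, the B1 receptor, had 3.44, 6.71 and 10.0 in the same order. All 6 values fell short of the signal-to-noise limit, the highest ratio being 1.67 for Bdkrb2 on the high-dose array. No difference between the groups was detectable at this signal, and the values do not show that the receptors are absent.

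Xpnpep2, the membrane-bound aminopeptidase P, removes the first residue of bradykinin. It had 75.6 with water, 50.8 at the low dose and 64.6 at the high dose. Both dose arrays were below control, and the low-dose array was the lowest. The log2 difference was -0.57 with a technical SD of 0.23 for the low dose against control, which is 1.49-fold lower, and -0.23 with an SD of 0.22 for the high dose against control. Between the doses it stood at 0.35 for the high dose against the low dose, with an SD of 0.15. Under normexp the low dose stood at -0.35. The share of named genes at least as far from 0 was 11.9% at the low dose and 45.8% at the high dose.

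**Figure D3:**
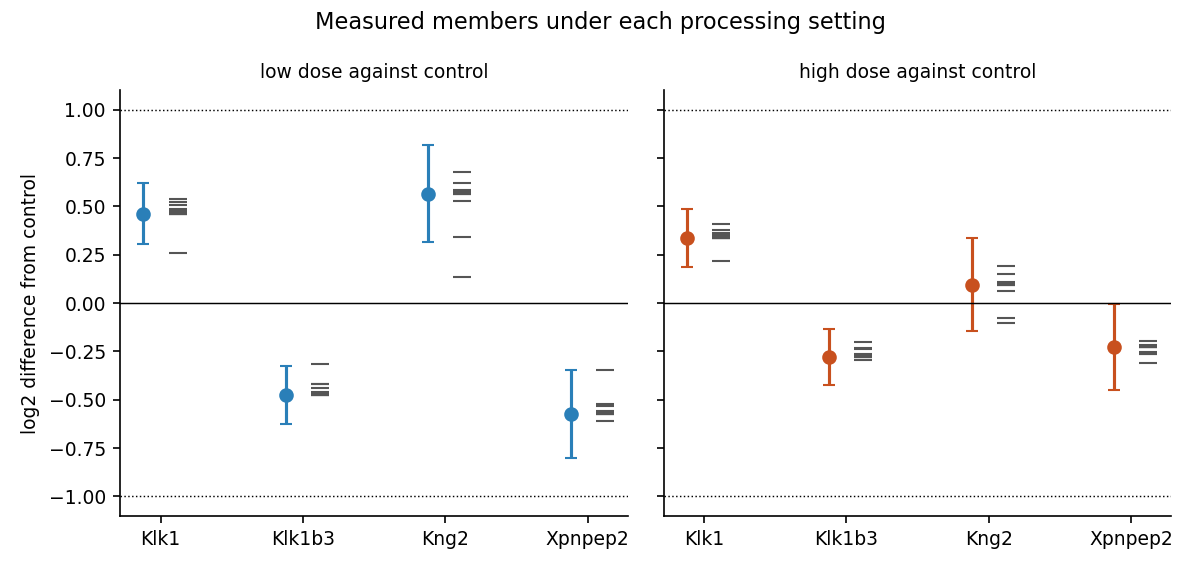
Log2 difference from control of the 4 measured members at the low dose (left) and the high dose (right). Points with bars give the reported value and its technical SD at 1 spot, short grey lines give the value under each of up to 11 other processing settings, and dotted lines mark 2-fold. Klk1 stays above 0 and Klk1b3 and Xpnpep2 below 0 under each setting, while Kng2 at the high dose crosses 0. Some settings cannot change these values.

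Genes that act with the members were examined by role, in a list of 83 genes beside them, of which 82 had a probe. Of 41 measured at the low dose and in control, 4 passed 2-fold, 2 on each side of control. That is 9.76%, against 3.22% of all named genes. The median was -0.22, against -0.11 over all named genes. Of 45 measured at the high dose and in control, 0 reached 2-fold, against 1.00% of all named genes. The median there was -0.18, against -0.05 over all named genes. These counts leave out genes above background on 1 of the arrays compared, among which A2m and Serpina3n are described with the inhibitors.

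Among the peptidases that cut kinins or related peptides, 13 were measured at the low dose, of which 10 lay below control. Their median there was -0.35, against -0.11 over all named genes, so lying below control was common over the array as well. Mme, which encodes neprilysin, had 2228 with water, 1034 at the low dose and 1609 at the high dose. Its difference was -1.11 with a technical SD of 0.13 at the low dose, which is 2.15-fold lower, and -0.47 at the high dose. Dpp4, a dipeptidyl peptidase of the brush border, had 2758, 1300 and 1700 in the same order, with -1.09 at the low dose and -0.70 at the high dose. The Dpp4 difference fell short of 2-fold with the authors' deposited values, at -0.80, and with the foreground median, at -0.83. Dpp4 has 2 probes on the array, as do Ace, A2m and Ptgs1 described below, and 1 of them stands for each gene here. Prep, prolyl endopeptidase, was 1.997-fold lower at the low dose, just short of 2-fold, and at -0.29 on the log2 scale at the high dose.

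Ace, angiotensin-converting enzyme and a main kinin-cutting enzyme, had 124 with water, 96.9 at the low dose and 102 at the high dose, a log2 difference of -0.35 at the low dose and -0.28 at the high dose. Anpep, an aminopeptidase, stood at -0.60 at the low dose and 0.08 at the high dose. Cpe, a carboxypeptidase of secretory cells, was the peptidase on the higher side of 2-fold, at 1.02 at the low dose with an SD of 0.24, but 0.45 under normexp and 0.88 with the local offset removed.

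Several of these peptidases, and Xpnpep2, sit in the brush border of the proximal tubule. All 12 proximal tubule markers stood above background on every array, and all 12 lay below control at both doses. Their median was -0.41 at the low dose and -0.53 at the high dose, against -0.11 and -0.05 over all named genes. Their summed intensity was 166508 with water, 130216 at the low dose and 121783 at the high dose. None of the 12 reached 2-fold, which lies near the shares over all named genes, 3.22% at the low dose and 1.00% at the high dose. The part of proximal tubule content in the peptidase values was not tested.

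Inhibitors of kallikreins and of the contact system gave 6 measured genes at the low dose. Of these, 0 reached 2-fold, which lies near the share of 3.22% over all named genes. A2m, Serpina3n and Spink1 were above background at both doses but not in control. Serping1, the C1 inhibitor, which also blocks plasma kallikrein, stood at 0.06 at the low dose and -0.51 at the high dose. A2m, which encodes alpha-2-macroglobulin, had 350 at the low dose and 24.6 at the high dose, and was not above background with water, at 8.02. Its bound was 25.5-fold higher at the low dose than in control. Serpina3n, a serpin, had 167 at the low dose and 34.6 at the high dose, against 17.2, not above background, with water. Its bound was 9.71-fold higher at the low dose and 2.01-fold higher at the high dose than in control. The high-dose bound for A2m was 1.79-fold higher than in control. For such a bound the control value was its own intensity or, where larger, the lowest one above background there. A control reading that is not above background is uncertain, so these bounds are approximate and not strict minimums. The value of 2.01 therefore does not place Serpina3n past 2-fold at the high dose. The high dose stood below the low dose by more than 2-fold for both, at -3.83 for A2m and -2.27 for Serpina3n.

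In the contact system, F12, F11 and Prcp, which act with plasma kallikrein, were above background on no array. C1qbp, a kininogen-binding protein, stood at -0.38 at the low dose and -0.42 at the high dose.

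In signalling downstream of the kinin receptors, 1 of 15 measured genes passed 2-fold at the low dose, or 6.67%, against 3.22% of all named genes. At the high dose 0 of 16 passed, against 1.00%. The gene past 2-fold was Ptgs1, a cyclooxygenase that makes prostaglandins, with 133 with water, 414 at the low dose and 249 at the high dose. Its log2 difference was 1.64 at the low dose and 0.90 at the high dose. Pla2g4a, the phospholipase that frees arachidonic acid, stood at 0.84 and 0.80, and Ptges, a prostaglandin E synthase, at 0.55 and 0.53, at the low and high dose. Under normexp Pla2g4a stood at 0.30 and 0.25. Gnaq, a G protein subunit that kinin receptors use, and Ptgs2 were above background on no array.

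Markers of some other cell types also stood apart from control, and those of others did not. Of the measured markers of podocytes (6), intercalated cells (6) and endothelium (5), 0 reached 2-fold at either dose. Over all named genes 3.22% did so at the low dose and 1.00% at the high dose, so these counts lie near those shares. Of 9 thick ascending limb markers, 8 lay below control at the low dose, with a median of -0.64. At the high dose 6 of these 9 lay above control, with a median of 0.07. Among adipocyte markers, 5 of 10 were above background on all arrays and all 5 passed 2-fold above control at both doses, with a summed intensity of 743 with water, 7611 at the low dose and 3297 at the high dose. Over all named genes, 2.48% were at least 2-fold higher than control at the low dose and 0.849% at the high dose. The counts of 0 at the high dose given next, for macrophage and fibroblast markers, lie near the latter share. Macrophage markers had 4 of 7 measured members at least 2-fold higher at the low dose and 0 of 7 at the high dose. Their sums were 2359 with water, 5124 at the low dose and 2406 at the high dose. Of 6 fibroblast markers, all 4 measured ones were at least 2-fold higher at the low dose and 0 of 4 at the high dose, with sums of 1775 with water, 6399 at the low dose and 2344 at the high dose. Lum and Postn were above background on no array. Plin1 and Lep among adipocyte markers and Mrc1 among macrophage markers were above background on no array. Of 10 principal cell markers of the collecting duct, 6 lay above control and 4 below at each dose, with 2 past 2-fold at the low dose and 0 at the high dose. Their median was 0.57 at the low dose and 0.58 at the high dose. The part of these cells in the Ptgs1, Cpe and A2m values was not tested.

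**Figure D4:**
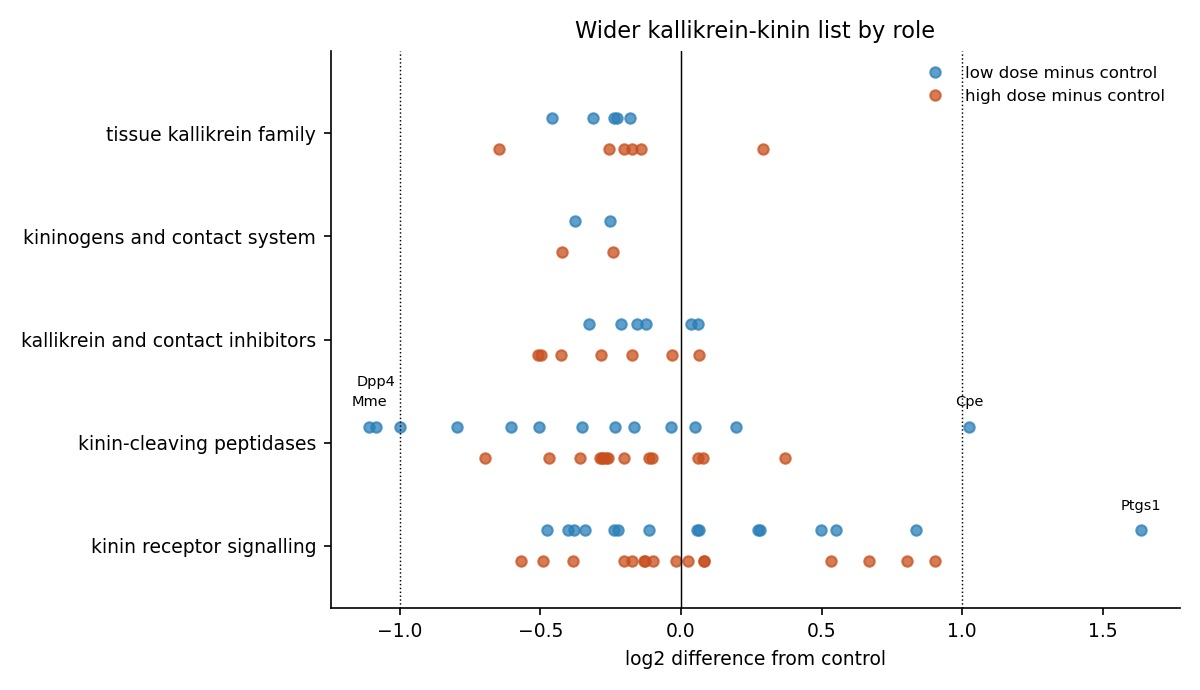
Log2 difference from control of each gene of the wider kallikrein-kinin list above background on both arrays, by role, with the low dose above the high dose in each row and dotted lines at 2-fold. Mme and Dpp4 lie past 2-fold below control and Cpe and Ptgs1 past 2-fold above it at the low dose, and none of the genes plotted lies past 2-fold at the high dose. Genes above background on 1 of the arrays compared, such as Serpina3n, are not plotted there.

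Genes with the pattern nearest to each member were found by the distance between the log2 differences of both doses, over 9653 named genes above background on all arrays. For Klk1 these were Erg, Sgce and Dcakd, with 56 genes within 0.1 of it. For Klk1b3 they included Mthfd1 and Erich4, with 223 genes that near. For Kng2 they were Igf2, Gmfg and Car8, with 44, and for Xpnpep2 they were Scaf11, Pgm3 and Ccdc3, with 114. With 3 arrays, such likeness is a description of these pools.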

How the data were processed

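Per the file headers, each array was scanned at 532 nm at a photomultiplier setting of 550 and read with GenePix Pro 6.1.0.4, whereas Agilent Feature Extraction is the tool in the submitters' processing notes. The intensity used is the deposited spot mean less a background of 39 or 40 units set from negative controls, per the file headers. Each spot's signal-to-noise ratio and its flag are scores, and saturated pixels a percent, in the deposited files. The authors also deposited log2 values, with no normalization stated in the labels. They correlated at 0.999 or more with the scanner values of the same array over 14554 probes. The high-dose header names a mouse design, but all 45220 spots carry the annotation of the other arrays.

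Control spots, spots of non-uniform signal (mean and median over 1.5-fold apart; 135 with water, 131 at the low dose, 70 at the high dose) and bright spots that were not found were left out. Arrays were scaled to 1 common 75th percentile (factors 1.15, 0.959 and 0.910), values below 1 were set to 1, and log2 was taken. Above background meant that 50% or more of a probe's spots reached a signal-to-noise ratio of 3. For each gene, the probe measured on the largest number of arrays was taken, and the brighter one among ties. The design assumed no test, since each group has 1 array. Slide position and group cannot be told apart. Symbols came from the RefSeq table of GRCr8, which named 18355 probes by accession. Promoters of 8 of 9 members were in the RefSeq table.

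The members and lists were chosen with earlier results of these data known. All members were named, with up to 4 genes past 2-fold per role, and the 3 nearest genes in pattern, except that some genes are not reported here. Other genes were named after their values were seen. Alternatives were normexp (limma 3.58.1, offset 50), quantile normalization, the authors' values, the foreground median, non-uniform spots kept, a weak corner of the control array left out, other limits for dim probes, the mean over probes and a floor of 16. Removal of local offsets was added after seeing the data.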

Additional observations from a re-analysis of the deposited data

How the results depend on the processing

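Over the 12 differences of the measured members, 129 values were computed under 11 alternatives, and 6 of them moved by more than the technical SD at 1 spot. Many of the 129 could not move, so this count overstates how stable the differences are. The mean over probes and the raised floor cannot change them, since each member has 1 probe and its measured values exceed that floor. The absence of a filter and the signal-to-noise minimum of 5 only keep or drop a value. The signs of Klk1, Klk1b3 and Xpnpep2 held in all 3 comparisons under all alternatives, which is informative only for the alternatives able to change a value. Kng2 at the high dose against control turned to -0.10 under normexp and -0.08 with the local offset removed. At a signal-to-noise minimum of 5, Kng2 was not above background on every array, which left 3 measured members. With no filter on dim probes, 1 member passed 2-fold for the low dose against control and 2 for the high dose against control, and of the wider list 12 genes passed at the low dose, 13 at the high dose and 10 between the doses, in place of 4, 0 and 2. At a minimum of 5, 1 gene of the wider list passed between the doses. For the low dose against control, 3 genes of the wider list passed in place of 4 under each of 4 settings. These were the authors' deposited values, normexp, the mean over probes and the minimum of 5. With the authors' deposited values 1 gene, Ptgs1 at 1.13, passed at the high dose. Members' alternatives other than the absence of a filter left the count past 2-fold at 0 in each comparison. Among them, the mean over probes, the raised floor and the minimum of 5 could not raise it. No member spot lay in the weak corner, which held 395 spots. No paired analysis was possible because each group has 1 array. Each member rests on 1 spot per array, and signal over background limits the 5 members below the limit and Kng2.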
